A study of Mus musculus with 9 samples.

Results

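The small nucleolar RNA (snoRNA) genes were described in MA-10 cells, which derive from a mouse tumour of the steroid-making Leydig cells. A gene was a member if a probe with a single gene symbol named it and the symbol began with Snord (C/D box RNAs), Snora (H/ACA box RNAs) or Scarna (small Cajal body RNAs) followed by a digit. Of several probes for a gene, the probe with the highest mean over the 9 arrays was taken. This gave 54 of the 19938 genes measured, namely 31 Snord, 20 Snora and 3 Scarna genes, and all 54 were tested with no filter on low values. Another 41 probes that carried a snoRNA or scaRNA symbol together with other symbols were not used.

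Total RNA was hybridised to whole-transcript arrays in 3 groups of 3 arrays. The first group received 10 µM forskolin with 1 mM AICAR, the second 10 µM forskolin, and the control cells the DMSO vehicle, each for 1.5 h in serum-free DMEM-F12 with penicillin and streptomycin, after growth with horse serum. By title the control cells were untreated and by the treatment field they received DMSO, and the field was followed. AICAR was given only together with forskolin. MA-10 is a single cell line, and the labels do not say whether the replicates were separate cultures, so p-values measure the spread between arrays, which may be technical. Forskolin raises cAMP by switching on adenylyl cyclase. AICAR is turned inside cells into ZMP, a mimic of AMP that activates the AMP-activated protein kinase.

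snoRNAs are short RNAs that stay in the nucleus and bring enzymes to ribosomal RNA by base pairing. C/D box RNAs carry fibrillarin (Fbl) with Nop56, Nop58 and Snu13 and direct ribose methylation, and H/ACA box RNAs carry dyskerin (Dkc1) with Gar1, Nhp2 and Nop10 and direct the change of uridine to pseudouridine. A few, such as the U8 RNA (Snord118), U14 (Snord14e), U22 (Snord22) and U17 (Snora73a and Snora73b), are needed for the cutting of the ribosomal RNA precursor, and small Cajal body RNAs act on the RNAs of the spliceosome. In mammals most snoRNAs are cut out of the introns of host genes, many of which encode ribosomal proteins or other parts of the translation machinery.

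The members had that layout. In the RefSeq table of the mouse assembly GRCm38.p6 a gene spanned 53 of the 54 members, and Snord118 alone had none. The spanning gene was a ribosomal protein gene for 21 members, a noncoding gene for 15 and another protein-coding gene for 17. C/D box members were 45 to 148 bases long (median 68), H/ACA box members 61 to 205 bases (median 125), and the 3 Scarna members 62, 118 and 275 bases. The 53 members lay in 43 hosts, of which 24 were measured on the arrays. A start window from 250 bases before to 50 bases after the transcript start was at hand for 32 hosts.

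A run of pyrimidines at the transcript start is the mark of terminal oligopyrimidine genes, whose translation follows growth signals, and is common among snoRNA hosts. The search took runs of at least 8 pyrimidines at the start or next to it. That length was a setting of the search and not a definition of these genes, so shorter runs were not counted. Such a run was found in 7 of the 32 hosts (21.88%), against 5.943% of the 27025 genes of the table. Among the 11 ribosomal protein hosts it was 2 (18.18%). Only the RefSeq start was searched, so a host without a run there may have one at another start. In Snhg10 the run ended at the base before the start. The 7 hosts are printed because they carry that feature, with the run in capitals and all other bases in lower case, from 45 bases before the start to 15 after it. Ncl, the nucleolin gene, is added because its snoRNAs differed in direction, as described with the pairs, and it has no such run. The windows lie at chr11:48800315-48800374 on the plus strand for Rack1, chr7:109519150-109519209 on the plus strand for Rpl27a, chr7:141447606-141447665 on the plus strand for Rplp2 and chr7:110018270-110018329 on the plus strand for Ipo7. Those of the noncoding hosts lie at chr11:62602832-62602891 on the plus strand for 2410006H16Rik, chr12:105032265-105032324 on the minus strand for Snhg10 and chr4:132308633-132308692 on the plus strand for Snhg12. The Ncl window is chr1:86359441-86359500 on the minus strand. Sequences are from RefSeq, GRCm38.p6, written 5′ to 3′.
Rack1: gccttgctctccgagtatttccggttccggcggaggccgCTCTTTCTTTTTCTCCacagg
Rpl27a: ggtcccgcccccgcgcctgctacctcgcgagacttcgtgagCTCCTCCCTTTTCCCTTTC
Rplp2: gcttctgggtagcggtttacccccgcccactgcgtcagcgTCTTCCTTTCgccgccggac
Ipo7: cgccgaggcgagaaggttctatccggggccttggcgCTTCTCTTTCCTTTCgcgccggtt
2410006H16Rik: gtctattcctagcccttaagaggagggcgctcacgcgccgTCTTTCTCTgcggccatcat
Snhg10: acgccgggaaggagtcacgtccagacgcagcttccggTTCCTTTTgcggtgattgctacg
Snhg12: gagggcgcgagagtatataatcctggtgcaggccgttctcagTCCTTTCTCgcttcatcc
Ncl: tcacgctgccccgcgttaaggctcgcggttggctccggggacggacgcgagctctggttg

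Over the whole start windows, searched on both strands, the full cAMP response element TGACGTCA was found in 2 of the 32 hosts, Eef2 and Rpl27a (6.25%, against 1.876% of all genes). The shorter TGACG, which the full element contains, was found in 14 (43.75%, against 21.02%), and the E-box CACGTG in 6 (18.75%, against 7.241%). These are letters in a window and say nothing of binding.

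Values are the deposited log2 summaries. They rank no probe against another, so only differences of the same probe between arrays are read, and a log2 difference of 1 is a 2-fold change. Array medians lay between 7.14 and 7.19. The spread over all probes (interquartile range) was 3.42, 3.35 and 3.34 in the forskolin and AICAR replicates 1, 2 and 3, against 3.42 to 3.48 in the other 6 arrays. Star, the cholesterol transporter that cAMP induces in Leydig cells, had 8.47, 8.38 and 8.40 with forskolin and AICAR, 10.55, 10.33 and 10.52 with forskolin, and 8.57, 8.61 and 8.56 in control. Of 7 Leydig markers 5 were measured, with Lhcgr and Insl3 not matched, and Cyp11a1, which starts steroid synthesis, had 11.76, 11.68 and 11.64 with forskolin and AICAR, 11.81, 11.84 and 11.79 with forskolin, and 11.66, 11.68 and 11.75 in control. Against forskolin the median difference of the 5 with AICAR was -0.34, and 2 were called lower, where 4.12% of all genes were. These were Star and the steroid dehydrogenase Hsd3b1 (difference -0.59 ± 0.14, adjusted p 0.044 in limma), while Cyp17a1 differed by -0.34 (adjusted p 0.080). Among the 14 listed markers of Sertoli, germ, macrophage and endothelial cells 13 were measured. Of these, 1 was called against forskolin, where 5.1% of all genes were. That was Cd68, 1 of 4 macrophage markers, which fell by 0.39 (SE 0.063, adjusted p 0.0068), while Adgre1, Csf1r and Ptprc differed by 0.10, 0.12 and -0.046 and the median of the 4 was 0.028. In such bulk RNA, fewer cells and less RNA per cell cannot be told apart, and probes inside an intron can also read unspliced host RNA, whose part in the values was not tested.

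Adding AICAR to forskolin went with lower values of most snoRNA genes, by small amounts, and few of them passed the test. The difference from forskolin alone was below 0 for 42 of 54 members (77.8%), against 40.8% of all genes. The median difference over the members was -0.15, against 0.02 over all genes. At an adjusted p under 0.05 in limma, 3 members fell and 1 rose, together 7.41% of the members, against 5.1% of all genes called, so the share called was near the background. The falls were 5.56% of the members, against 4.12% of all genes, and the rise 1.85%, against 0.978%. At an unadjusted p under 0.05 there were 25 members, 21 lower (38.9%, against 11.9% of all genes) and 4 higher (7.41%, against 12.2%), together 46.3%, against 24.1%. In 17 members every array with AICAR lay below every forskolin array (31.5%, against 12.2% of all genes), and in 3 every array lay above (5.56%, against 11.5%), together 37%, against 23.6%.

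**Figure D1:**
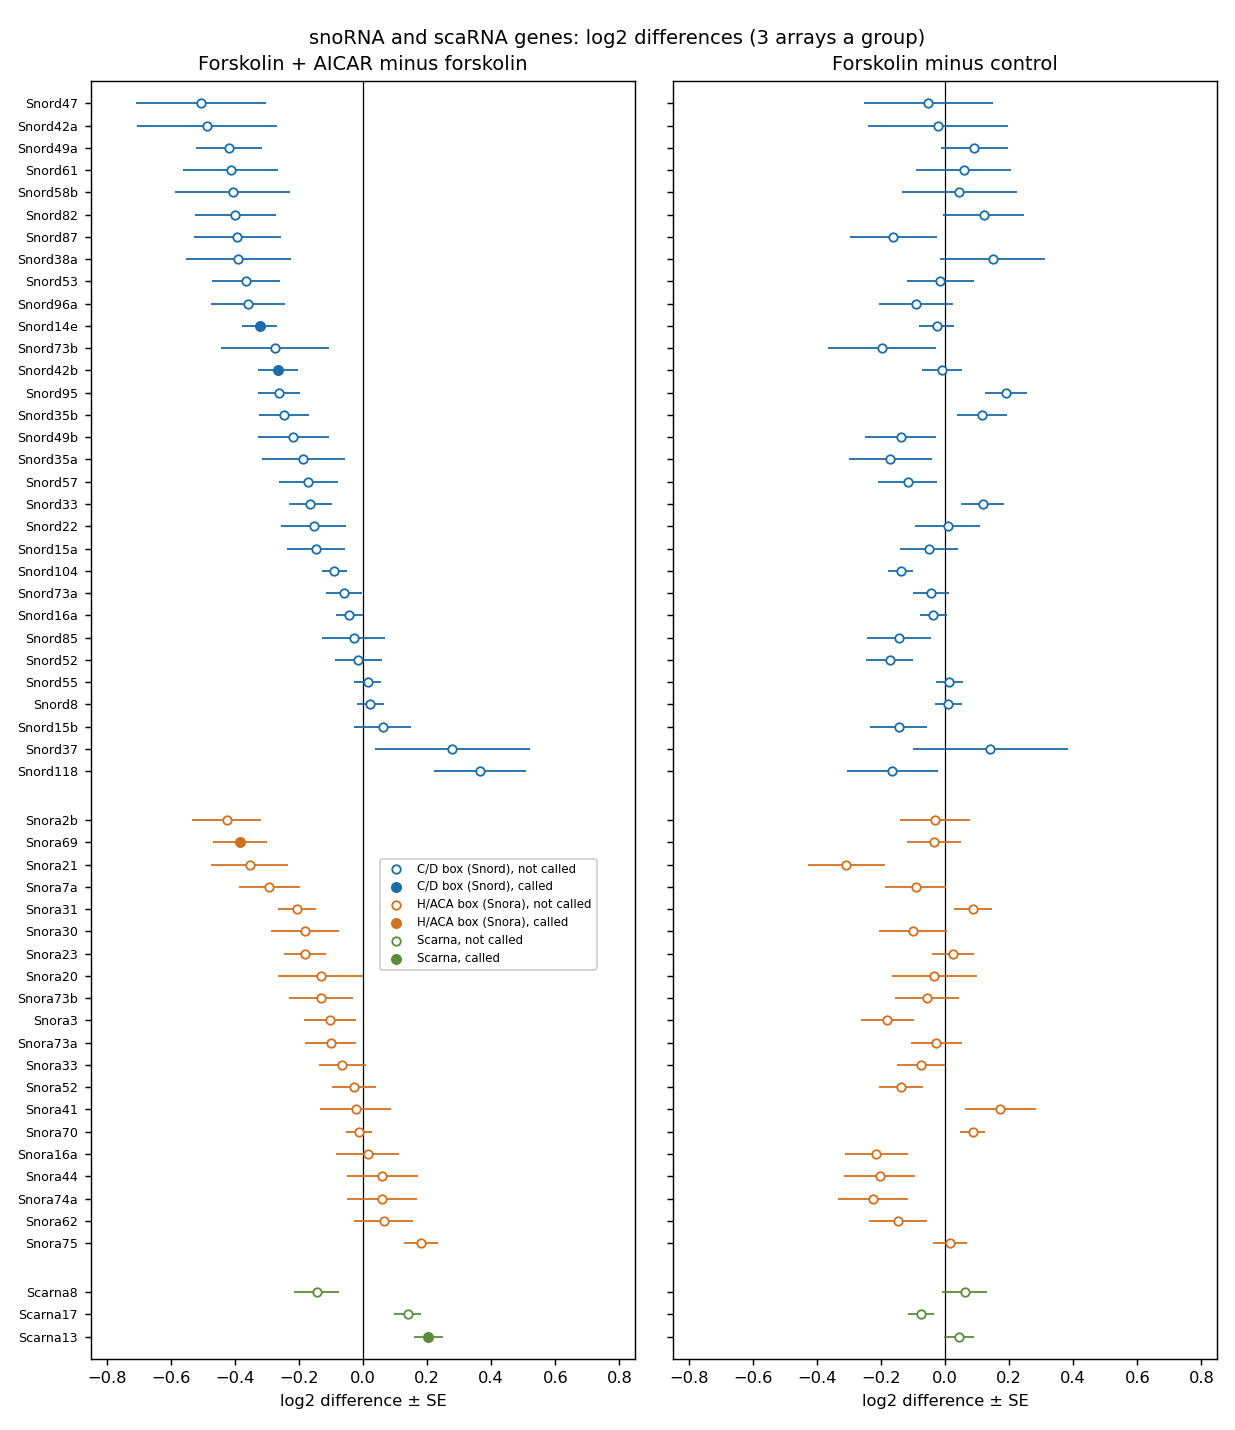
Log2 difference ± SE of each of the 54 genes (rows, grouped by class), for forskolin with AICAR minus forskolin (left) and forskolin minus control (right), 3 arrays a group. Filled points are called at an adjusted p under 0.05: on the left Snord14e, Snord42b and Snora69 below 0 and Scarna13 above 0, on the right none. The 2 panels share the forskolin arrays.

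Among the RNAs that serve precursor cutting, U14 fell. Snord14e, a copy of U14 in an intron of the heat shock protein gene Hspa8, had 8.70, 8.62 and 8.62 with forskolin and AICAR, against 8.91, 8.91 and 9.10 with forskolin. The groups did not overlap, and the control arrays, at 8.98, 9.01 and 9.01, lay with the forskolin arrays. The difference from forskolin was -0.32 ± 0.055 (SE, n = 3 arrays a group, 1.25-fold lower, adjusted p 0.0098 in limma). U14 exists in near-identical copies in that gene, so which copy the probe reads is uncertain.

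The other RNAs of that role did not pass. Snord118, the U8 RNA, which has a transcription unit of its own, had 7.23, 7.33 and 7.04 with forskolin and AICAR, against 6.82, 6.58 and 7.1 with forskolin. Its values were the highest on average with AICAR but overlapped (difference 0.36 ± 0.14, adjusted p 0.17), and this was the largest positive difference among the 54. Snord22, the U22 RNA of the noncoding host Snhg1, differed by -0.15 ± 0.10 (adjusted p 0.36), and by -0.069 without AICAR replicate 3. Snora73a and Snora73b, the near-identical U17 RNAs of Snhg3, differed by -0.10 ± 0.080 (adjusted p 0.44) and -0.13 ± 0.10 (adjusted p 0.43), and both differences turned positive without replicate 3 of every group.

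Of the C/D box guides, Snord42b fell. This RNA of the ribosomal protein gene Rpl23a had 8.76, 8.57 and 8.52 with forskolin and AICAR, against 8.88, 8.85 and 8.92 with forskolin. The AICAR arrays were all lower, with replicate 1 closest to the forskolin arrays (difference -0.27 ± 0.062, adjusted p 0.041). The largest negative difference of all, that of Snord47 in the noncoding host Gas5, did not pass, with 9.06, 8.94 and 8.15 with forskolin and AICAR, against 9.32, 9.11 and 9.24 with forskolin (difference -0.51 ± 0.20, adjusted p 0.17). Here replicate 3 with AICAR lay far below the other two, and without it the difference was -0.22.

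The same replicate was the lowest for other C/D box RNAs with wide spread. Snord42a, also of Rpl23a, had 7.36, 6.89 and 6.41 with forskolin and AICAR, against 7.16, 7.32 and 7.64 with forskolin, with overlap (difference -0.49 ± 0.22, adjusted p 0.21). Snord82, a C/D box RNA of Ncl, had 11.01, 10.77 and 10.46 with forskolin and AICAR, against 11.08, 11.13 and 11.23 with forskolin, with no overlap (difference -0.40 ± 0.13, adjusted p 0.11). Snord58b of the ribosomal protein gene Rpl17 had 4.30, 4.04 and 3.70 with forskolin and AICAR, against 4.33, 4.33 and 4.60 with forskolin, also with no overlap (difference -0.41 ± 0.18, adjusted p 0.20). Snord73b of Rps3a1 had 8.58, 8.41 and 7.85 with forskolin and AICAR, against 8.58, 8.48 and 8.60 with forskolin, with overlap (difference -0.28 ± 0.17, adjusted p 0.33). Without AICAR replicate 3 the differences were -0.25 for Snord42a, -0.26 for Snord82, -0.25 for Snord58b and -0.059 for Snord73b.

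Just outside the threshold stood Snord49a of the noncoding host 2410006H16Rik, with 7.31, 7.23 and 7.43 with forskolin and AICAR, against 7.81, 7.54 and 7.87 with forskolin (difference -0.42 ± 0.10, adjusted p 0.051). Snord95 of Rack1, whose protein sits on the small ribosomal subunit, had 9.0, 8.96 and 8.97 with forskolin and AICAR, against 9.19, 9.12 and 9.40 with forskolin (difference -0.26 ± 0.065, adjusted p 0.052). Both had all AICAR arrays below all forskolin arrays. Snord37, a C/D box RNA of the elongation factor gene Eef2, was an exception in direction, with 6.61, 5.86 and 5.47 with forskolin and AICAR, against 5.53, 5.6 and 5.97 with forskolin (difference 0.28 ± 0.24, adjusted p 0.48). Its highest array was replicate 1 with AICAR, and the difference was -0.037 without it. The C/D box members that were not called ranged from -0.51 to 0.36.

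Of the H/ACA box guides, Snora69 of the ribosomal protein gene Rpl39 fell, with 8.15, 7.87 and 7.80 with forskolin and AICAR, against 8.32, 8.31 and 8.34 with forskolin (difference -0.38 ± 0.085, 1.3-fold lower, adjusted p 0.034). The forskolin arrays lay close together, and all AICAR arrays were lower. Snora2b of Kansl2 had a larger difference that missed the threshold, with 7.15, 6.72 and 6.95 with forskolin and AICAR, against 7.28, 7.28 and 7.54 with forskolin (difference -0.43 ± 0.11, adjusted p 0.056). Snora75, of Ncl, lay the other way, with 8.09, 8.01 and 7.92 with forskolin and AICAR, against 7.77, 7.84 and 7.86 with forskolin (difference 0.18 ± 0.054, adjusted p 0.093). The H/ACA box members that were not called ranged from -0.43 to 0.18. Of the members with the brightest probes, Snora23 of the nuclear import gene Ipo7 had 10.74, 10.53 and 10.58 with forskolin and AICAR, against 10.83, 10.74 and 10.82 with forskolin (difference -0.18 ± 0.065, adjusted p 0.14), with overlap. Snora52 of Rplp2 differed by -0.030 ± 0.069, Snord49b of 2410006H16Rik by -0.22 ± 0.11 and Snord57 of Nop56 by -0.17 ± 0.091, none of them called. Without forskolin replicate 1 the difference of Snord49b was -0.10, and without AICAR replicate 3 that of Snord57 was -0.069.

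Of the 3 small Cajal body RNAs, 2 had a difference above 0 and 1 a difference below 0. Scarna13, the U93 RNA, in the noncoding host Snhg10, rose, with 9.67, 9.69 and 9.59 with forskolin and AICAR, against 9.44, 9.42 and 9.47 with forskolin (difference 0.20 ± 0.045, 1.15-fold, adjusted p 0.035). Scarna17, the U91 RNA, had 10.55, 10.59 and 10.65 with forskolin and AICAR, against 10.43, 10.45 and 10.51 with forskolin, with all AICAR arrays higher (difference 0.14 ± 0.041, adjusted p 0.092). Scarna8, of Haus6, had 7.92, 7.75 and 7.82 with forskolin and AICAR, against 7.92, 8.0 and 8.0 with forskolin (difference -0.14 ± 0.070, adjusted p 0.24).

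Most of these calls were lost when single arrays were left out. Leaving out an array also leaves fewer arrays from which the spread is estimated, and fewer genes were then called in most cases. A control array does not enter the difference from forskolin, so a call lost without one does not show that the difference rested on it. Only Snord14e kept its call when any 1 of the 9 arrays was left out, with a difference between -0.36 and -0.26 and an adjusted p of at most 0.049. Scarna13 lost its call without AICAR replicate 2, any 1 of the forskolin replicates or control replicate 3 (differences 0.18 to 0.23, adjusted p up to 0.12). Snora69 lost it without AICAR replicate 2 or 3, any 1 of the forskolin replicates or control replicate 2 or 3 (-0.49 to -0.31, adjusted p up to 0.13). Snord42b kept it in 1 of 9 cases, without AICAR replicate 1 (-0.34 to -0.22, adjusted p up to 0.14). The number of members called was 13 without AICAR replicate 1 (16.7% of all genes called), 2 without AICAR replicate 2 or replicate 3 (2.65% and 3.64%), 1 without forskolin replicate 1 or replicate 3 (3.22% and 2.44%) and 2 without control replicate 2 or replicate 3 (3.44% and 4.01%). Without replicate 3 of every group limma called none.

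Forskolin alone changed no member past the threshold. At an adjusted p under 0.05, 0 of 54 members were called against control, against 0.692% of all genes (0.497% higher and 0.196% lower), and limma gave an unadjusted p under 0.05 for 4 members (7.41%, against 7.27%), of which 3 were lower (5.56%, against 3.56%) and 1 higher (1.85%, against 3.72%). The difference was below 0 for 35 members (64.8%, against 47.6% of all genes), with a median of -0.036, against 0.0034 over all genes. In 6 members the groups did not overlap (11.1%, against 14% of all genes), with 4 lower (7.41%, against 7.13%) and 2 higher (3.7%, against 6.85%).

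The 4 with the smallest p included both directions. Snord104 had 10.52, 10.46 and 10.52 with forskolin, against 10.60, 10.69 and 10.62 in control, all lower (difference -0.14 ± 0.039, adjusted p 0.28). Snora21 of the ribosomal protein gene Rpl23 had 8.15, 7.78 and 8.05 with forskolin, against 8.18, 8.24 and 8.49 in control, also all lower (difference -0.31 ± 0.12, adjusted p 0.58). Snord95 had 9.19, 9.12 and 9.40 with forskolin, against 9.03, 9.03 and 9.09 in control, all higher (difference 0.19 ± 0.065, adjusted p 0.46). Snord52 differed by -0.17 ± 0.074 with overlap (adjusted p 0.65).

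Against control, forskolin with AICAR went with lower values of more members. The groups compared share the AICAR arrays with the comparison to forskolin and the control arrays with the comparison of forskolin to control, so the 3 comparisons are not independent. At an adjusted p under 0.05, 9 members fell and 1 rose, together 18.5% of the members, against 8.72% of all genes, with the falls at 16.7%, against 5.68%, and the rise at 1.85%, against 3.04%. At an unadjusted p under 0.05 there were 25 members (46.3%, against 31.1%), 23 lower (42.6%, against 13.4%) and 2 higher (3.7%, against 17.7%). The difference was below 0 for 45 members (83.3%, against 41.5%). In 22 members all AICAR arrays lay below all control arrays (40.7%, against 14.3% of all genes), and in 2 above them (3.7%, against 15.2%), together 44.4%, against 29.5%.

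**Figure D2:**
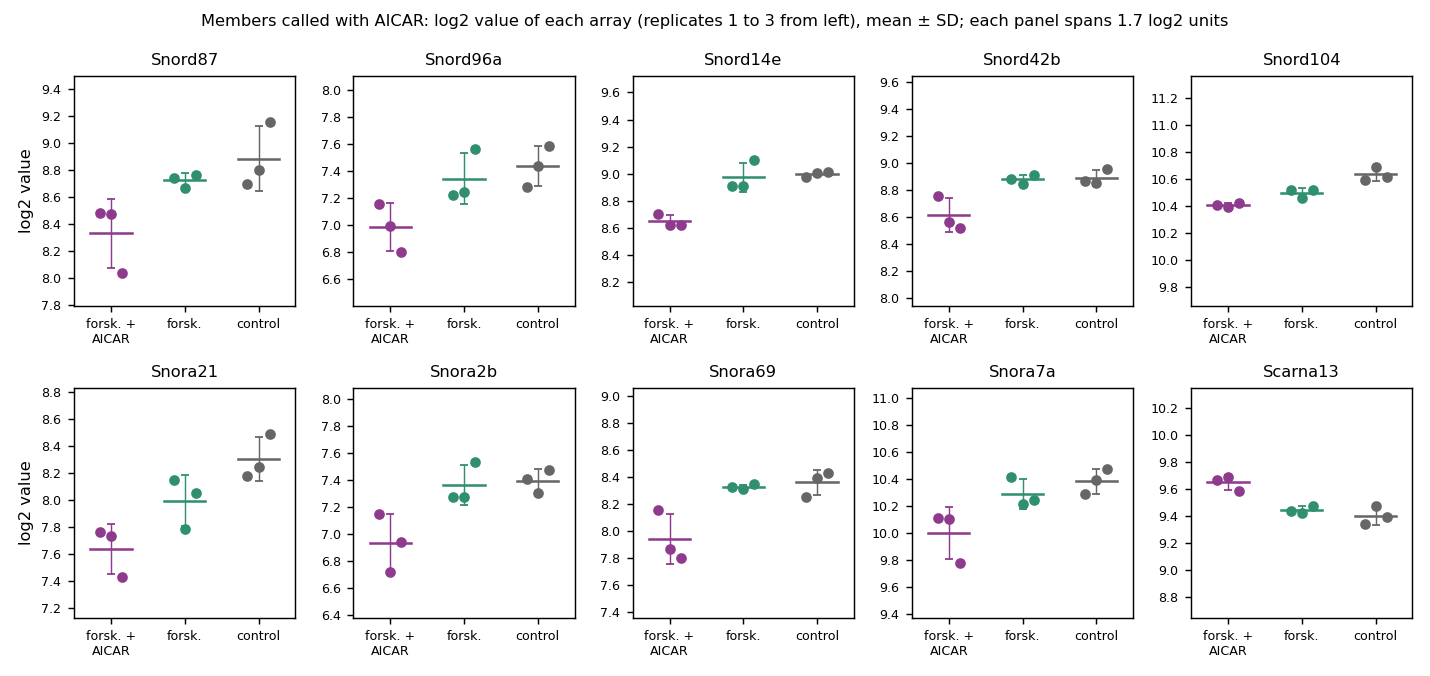
Log2 value of each array for the 10 members called with AICAR against forskolin or control, in the order forskolin with AICAR, forskolin and control, with mean ± SD (n = 3) and replicates 1 to 3 from the left. In 9 panels the AICAR arrays lie below the control arrays, and in Scarna13 above them, between 9.59 and 9.69.

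Snora21 had the largest fall, with 7.76, 7.73 and 7.43 with forskolin and AICAR, against 8.18, 8.24 and 8.49 in control (difference -0.66 ± 0.12, 1.58-fold lower, adjusted p 0.012). Its forskolin arrays lay between the other groups, and the lowest of them, replicate 2, was just above the AICAR arrays. A second Snora21 probe gave -0.53. Snord104, which in RefSeq lies in the noncoding gene Gm36220, had tight arrays, with 10.41, 10.39 and 10.42 with forskolin and AICAR, against 10.60, 10.69 and 10.62 in control (difference -0.23 ± 0.039, adjusted p 0.0086). Snord14e fell by 0.35 (SE 0.055, adjusted p 0.0061), and Scarna13 rose by 0.25 (SE 0.045, adjusted p 0.012).

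Among the other falls, Snord87 of the noncoding host Snhg6 had 8.48, 8.47 and 8.04 with forskolin and AICAR, against 8.70, 8.80 and 9.15 in control (difference -0.55 ± 0.14, adjusted p 0.038). Snord96a of Rack1 had 7.16, 6.99 and 6.80 with forskolin and AICAR, against 7.29, 7.44 and 7.58 in control (difference -0.45 ± 0.12, adjusted p 0.045). Snora7a of the ribosomal protein gene Rpl32 had 10.11, 10.11 and 9.78 with forskolin and AICAR, against 10.29, 10.39 and 10.47 in control (difference -0.39 ± 0.095, adjusted p 0.039). In each of these 3 the lowest array was AICAR replicate 3 and the highest control replicate 3. Snora2b (-0.46, adjusted p 0.033), Snora69 (-0.42, adjusted p 0.019) and Snord42b (-0.28, adjusted p 0.028) completed the calls.

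Snord14e, Snora21 and Snord104 kept their calls against control when any 1 array was left out. Scarna13 lost its call without AICAR replicate 2 or control replicate 3 (0.22 to 0.28, adjusted p up to 0.054). Snora69, Snord42b, Snora2b, Snora7a, Snord87 and Snord96a each lost the call without AICAR replicate 2, AICAR replicate 3, control replicate 2 or control replicate 3, with an adjusted p of at most 0.16. All of these but Snora69 also lost it without 1 or more of forskolin replicates 1, 2 and 3 and control replicate 1. The number of members called was 21 without AICAR replicate 1 (23.8% of all genes called), 4 without AICAR replicate 2 (3.42%), 5 without AICAR replicate 3 (5.4%), 6 without forskolin replicate 2 (5.47%), 6 without control replicate 1 (5.17%), 4 without control replicate 2 (3.99%) and 3 without control replicate 3 (3.31%).

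C/D box and H/ACA box RNAs were set side by side. For forskolin with AICAR minus forskolin, the C/D box median was -0.22, with quartiles of -0.38 and -0.051, and 26 of 31 members lay below 0. The H/ACA box median was -0.10, with quartiles of -0.19 and -0.0062, and 15 of 20 members lay below 0. In limma 2 of 31 C/D box and 1 of 20 H/ACA box members fell (6.45% and 5%, against 4.12% of all genes). All AICAR arrays lay below all forskolin arrays in 12 C/D box members (38.7%) and in 5 H/ACA box members (25%), against 12.2% of all genes. Against control the medians were -0.24 for C/D box and -0.17 for H/ACA box members, and for forskolin minus control -0.026 and -0.066. Without AICAR replicate 3 the H/ACA box median against control was -0.086. For forskolin minus control the C/D box median was 0.0035 without forskolin replicate 2 and -0.0034 without control replicate 3, and the H/ACA box median was -0.027 without control replicate 3.

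The class contrast was within the spread of the arrays. In each array the median of each class was taken over its members' values, each centred on the gene's mean over 9 arrays. C/D box members had -0.0090, -0.13 and -0.27 with forskolin and AICAR, 0.056, -0.015 and 0.12 with forskolin, and 0.036, 0.056 and 0.16 in control. H/ACA box members had -0.013, -0.013 and -0.22 with forskolin and AICAR, 0.093, -0.065 and 0.050 with forskolin, and 0.053, 0.052 and 0.15 in control. In both classes AICAR replicate 1 lay above forskolin replicate 2, so the arrays of these 2 groups overlapped. The C/D box minus the H/ACA box median was 0.0036, -0.12 and -0.047 with forskolin and AICAR, against -0.037, 0.051 and 0.068 with forskolin, and the control arrays had -0.017, 0.0034 and 0.011. That contrast averaged -0.053 ± 0.060 with forskolin and AICAR and 0.027 ± 0.056 with forskolin (SD, n = 3 each), and the arrays overlapped. Without AICAR replicate 3 the medians of the differences from forskolin were -0.13 for C/D box and -0.010 for H/ACA box members, and without replicate 3 of every group -0.12 and 0.011.

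**Figure D3:**
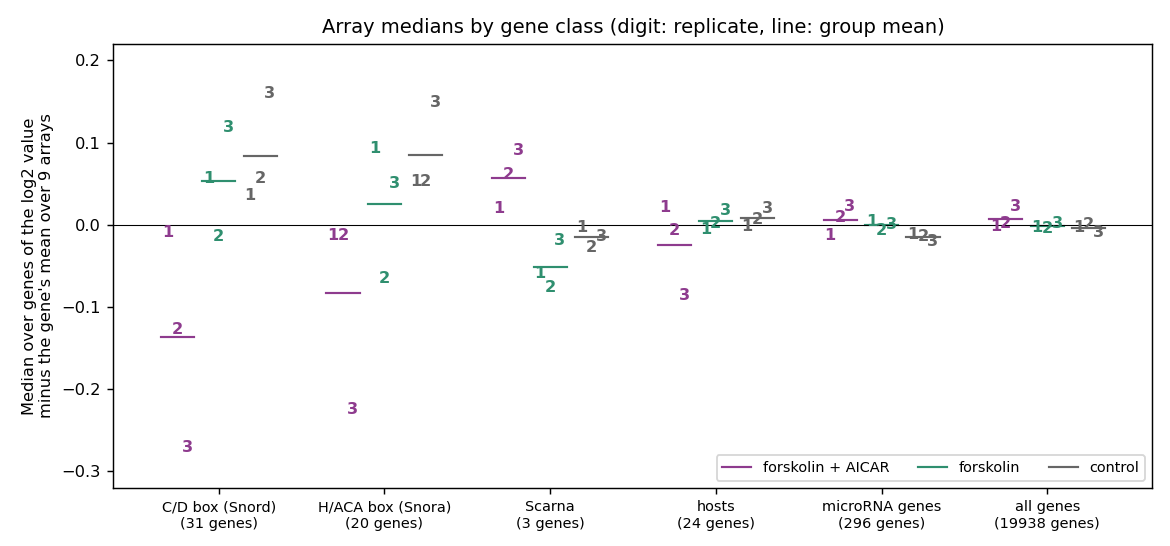
Median over the genes of a class of the centred log2 value, by array (digit: replicate) and group (line: mean of 3 arrays), for C/D box, H/ACA box and Scarna members, hosts, microRNA genes and all genes. AICAR replicate 3 lies lowest for C/D box (-0.27), H/ACA box (-0.22) and host genes (-0.087), and at 0.023 for all genes.

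Single arrays lay to the same side in these genes more often than over all genes, as they also did in several other short RNAs. AICAR replicate 3 was often an extreme array over all genes too, but more often the highest than the lowest. AICAR replicate 3 gave the lowest of 9 values in 27 of 54 members (50%), against 15.5% of all genes, and the highest in 1 member (1.85%), against 30.5% of all genes. Control replicate 3 gave the highest in 21 members (38.9%), against 10.5% of all genes, and the lowest in 0 members, against 19.4%. This was not particular to the members. Among short RNAs outside the naming rule, AICAR replicate 3 was the lowest array for Rmrp, Rn7sk, Rny1, Rny3 and Vaultrc5, but not for Rpph1 and Terc. Control replicate 3 was the highest for Rmrp, Rn7sk, Rny1 and Rny3. The shares for AICAR replicate 3 were alike in both classes, with 16 of 31 C/D box and 11 of 20 H/ACA box members. The median SD within a group was 0.16 with forskolin and AICAR, 0.11 with forskolin and 0.093 in control, against 0.076, 0.050 and 0.051 over all genes. AICAR replicate 3 also had the lowest interquartile range of the 9 arrays (3.34) and control replicate 3 the highest (3.48), and the part of this in the pattern was not tested.

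Differences were set against RNA length. Over the 54 members the difference of forskolin with AICAR from forskolin and the RefSeq length had a Pearson r of 0.39 and a Spearman rho of 0.41, shorter RNAs having the more negative differences. Within the 31 C/D box members r was 0.46 and rho 0.45, and within the 20 H/ACA box members 0.11 and 0.24. For forskolin minus control the sign was the opposite, with r of -0.16 and rho of -0.26 over the 54 and -0.24 and -0.25 within the C/D box members. With the mean log2 value over all arrays r was 0.029 over the 54. The points share the same arrays, and these figures are descriptions.

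The measured host genes, nearly all of them protein-coding, differed less than their snoRNAs. Of the 15 members in noncoding genes only Snord47, in Gas5, had a measured host. Over the 24 measured hosts the median difference of forskolin with AICAR from forskolin was -0.026, and 1 was called (background 5.1%): Srcap, a chromatin remodelling gene that hosts Snora30, fell by 0.21 (SE 0.045, adjusted p 0.030), while Snora30 differed by -0.18 (adjusted p 0.31). Leaving out AICAR replicate 3 or any 1 forskolin replicate ended the Srcap call, with a difference between -0.24 and -0.18 over all left-out arrays. For 25 of 28 members with a measured host the member's difference was below that of the host. Over these 28 the Pearson r between member and host was 0.33 and the Spearman rho 0.41. Forskolin minus control gave 17 of 28 below the host, with r at -0.26 and rho at -0.21.

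**Figure D4:**
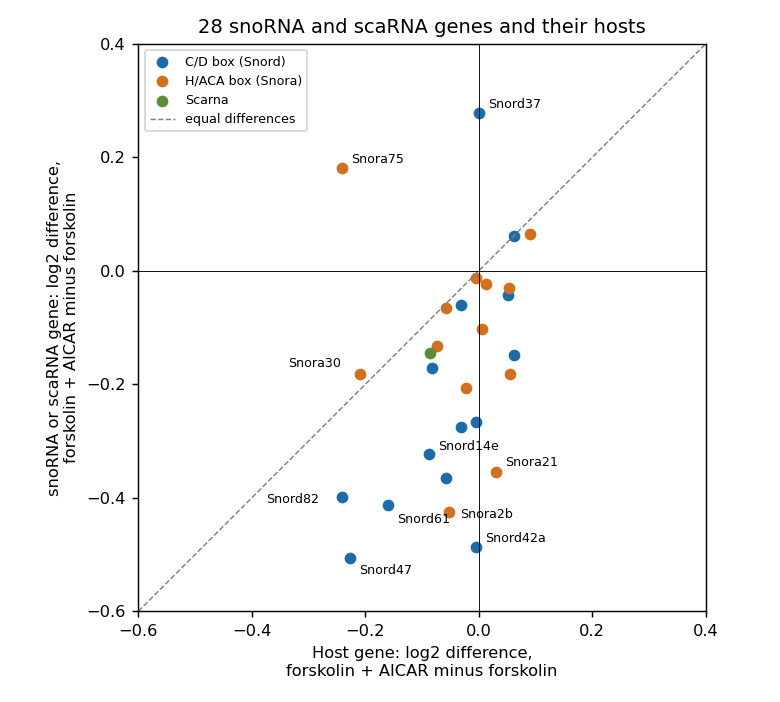
Log2 difference, forskolin with AICAR minus forskolin, of 28 snoRNA and scaRNA genes (vertical) against that of the gene that spans each (horizontal); the dashed line marks equal differences. Of the points, 25 lie below the line, and Snora75 lies at 0.18 with its host Ncl at -0.24.

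Of the hosts of snoRNAs with lower values, Rpl23 and Rpl23a were nearly level, while Hspa8 and Gas5 were lower by less than their snoRNAs. Rpl23, which spans Snora21, differed from forskolin by 0.030 ± 0.032 and from control by 0.029 ± 0.032, with Snora21 at -0.35 and -0.66. Rpl23a differed from forskolin by -0.0045 ± 0.053, with Snord42a at -0.49 and Snord42b at -0.27. Hspa8 had 12.90, 12.90 and 12.83 with forskolin and AICAR, against 12.96, 12.93 and 13.01 with forskolin (difference -0.087 ± 0.040, adjusted p 0.22), with Snord14e at -0.32. Gas5, a noncoding host of several C/D box RNAs, had 10.30, 10.21 and 9.89 with forskolin and AICAR, against 10.43, 10.33 and 10.32 with forskolin (difference -0.23 ± 0.093, adjusted p 0.18), with Snord47 at -0.51. In Gas5, too, AICAR replicate 3 was the lowest array.

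By kind of host, the median difference of forskolin with AICAR from forskolin was -0.16 for the 21 members in ribosomal protein genes, -0.091 for the 15 in noncoding genes and -0.18 for the 17 in other protein-coding genes. The medians of the classes stood furthest apart in noncoding hosts, where, with no test of that difference, 8 C/D box members had a median of -0.19 and 5 H/ACA box members one of 0.014. Those 5 were Snora16a and Snora44 of Snhg12, Snora73a and Snora73b of Snhg3, and Snora74a of Snhg4. Against control all 5 lay below 0, between -0.20 and -0.13, and for forskolin minus control also, between -0.22 and -0.028. None was called in any of the comparisons.

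Pairs of snoRNA genes inside the same host share that transcript as their source and allow a comparison within each array. There were 9 such pairs reported here, and in each the gene with the more negative difference from forskolin was subtracted from the other, so the sign of that change is fixed by the choice. The pair in Ncl changed most. Snora75 minus Snord82 was -2.91, -2.76 and -2.54 with forskolin and AICAR, -3.31, -3.29 and -3.36 with forskolin, and -3.20, -3.12 and -3.32 in control. The AICAR arrays lay above all other arrays, by 0.58 on average against forskolin and 0.47 against control (exact permutation test over arrays, two-sided, p 0.1 for each, the smallest that 3 against 3 allows). Adjusted over the pairs tested, these permutation p-values were 0.8 and 0.33. Ncl itself had 11.94, 11.80 and 11.53 with forskolin and AICAR, against 11.96, 11.98 and 12.05 with forskolin (difference -0.24 ± 0.092, adjusted p 0.16).

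The other pairs changed by 0.022 to 0.22 between forskolin with AICAR and forskolin, with exact permutation p-values from 0.3 to 0.9 over 3 arrays a group. The largest of these was Snord42b minus Snord42a in Rpl23a, at 1.4, 1.68 and 2.11 with forskolin and AICAR, against 1.72, 1.52 and 1.28 with forskolin, with overlap. Between forskolin with AICAR and control the pairs in Rack1 and Rpl13a did not overlap either, with changes of 0.38 and 0.31 (exact permutation p 0.1 for each). Between forskolin and control 3 pairs did not overlap. Snord95 minus Snord96a in Rack1 was 1.97, 1.87 and 1.84 with forskolin, against 1.74, 1.59 and 1.51 in control. Snord33 minus Snord35a in Rpl13a was -1.57, -1.37 and -1.29 with forskolin, against -1.59, -1.74 and -1.76 in control. Snord73a minus Snord73b in Rps3a1 was -2.61, -2.58 and -2.55 with forskolin, against -2.62, -2.61 and -2.98 in control. Each had an exact permutation p of 0.1, so no pair could pass 0.05 in this design.

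**Figure D5:**
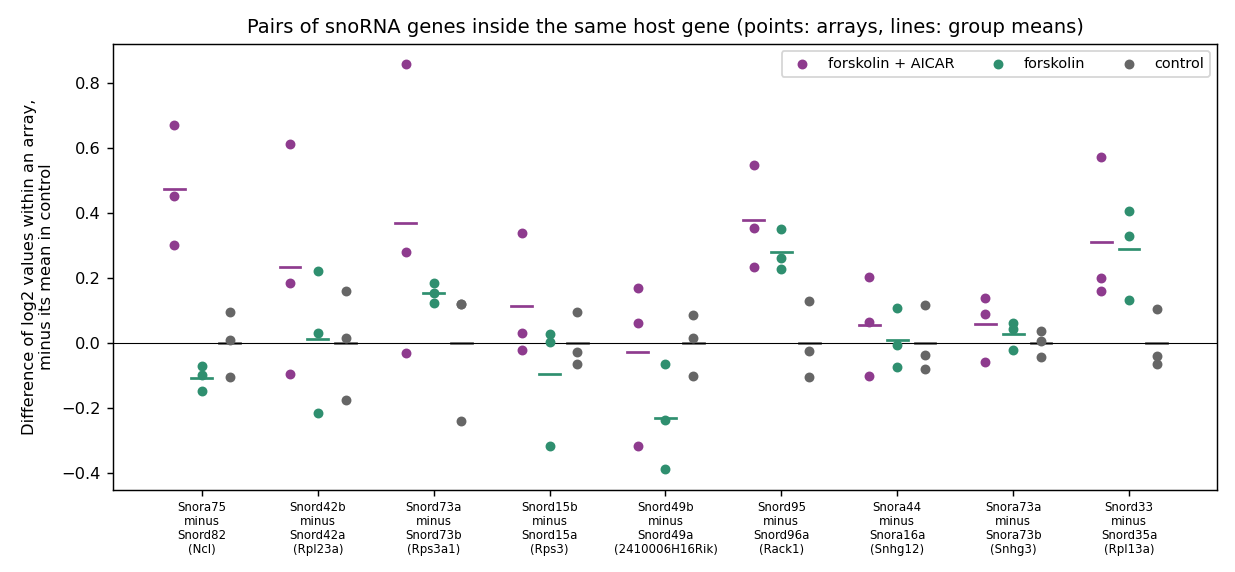
Difference of the log2 values of 2 snoRNA genes in the same host within each array, minus its mean in control (vertical), for 9 pairs (horizontal), by group (points: arrays, lines: means of 3). In the Ncl pair the 3 AICAR points lie above all forskolin and control points.

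The proteins that bind and build snoRNAs were described from lists. Of 8 core proteins 0 were called with AICAR against forskolin (background 5.1%), and 3 had an unadjusted p under 0.05 in limma, namely Dkc1 at -0.21 ± 0.061 (adjusted p 0.084), Nop58 at -0.20 ± 0.063 (adjusted p 0.10) and Nop56 at -0.082 ± 0.036 (adjusted p 0.20). Fbl differed by 0.020 ± 0.042. Of 15 assembly and Cajal body factors 0 were called in limma, with 2 at an unadjusted p under 0.05, Shq1 at -0.16 and Ruvbl1 at 0.10. Of 16 measured genes for RNA ends and decay 1 was called (background 5.1%). That was Exosc1, a subunit of the RNA exosome, which fell by 0.19 (SE 0.045, adjusted p 0.040 in limma). The call was lost without any 1 array other than AICAR replicate 1 and control replicate 3.

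A list of 14 genes covered RNA polymerase I, which makes the ribosomal RNA that snoRNAs act on, and its factors. It also held Ncl and Npm1, genes of nucleolar proteins that are not subunits of the polymerase, at -0.24 and -0.23 against forskolin. Ncl is counted among the hosts as well. Over all 14 the median difference of forskolin with AICAR from forskolin was -0.15, and 13 of 14 lay below 0, against 40.8% of all genes. In limma 2 of the 14 were called lower, where 4.12% of all genes were. Taf1a, a subunit of its promoter selectivity factor, had 9.82, 9.69 and 9.76 with forskolin and AICAR, against 10.08, 10.19 and 10.23 with forskolin, and fell by 0.41 (SE 0.052, adjusted p 0.0022). Polr1b, a large subunit of the polymerase, fell by 0.16 (SE 0.038, adjusted p 0.045), and its call ended when any 1 array but AICAR replicate 1 was left out. Against control 3 of the 14 were called lower in limma, where 5.68% of all genes were. Taf1a, Polr1b and Taf1b fell, by 0.38 (SE 0.052, adjusted p 0.0029), 0.15 (SE 0.038, adjusted p 0.040) and 0.34 (SE 0.079, adjusted p 0.033). The call of Taf1a against control held without any 1 array. That of Polr1b ended when any 1 array but AICAR replicate 1 was left out, and that of Taf1b ended without AICAR replicate 2 or 3, forskolin replicate 2 or any 1 control replicate, and with the replicate number as a block. Forskolin alone called none of the 14 against control (background 0.692%), with 1 at an unadjusted p under 0.05 in limma.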

How the data were processed

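The deposited values were log2 expression summaries per probe, which the authors made by RMA in Partek, per the submitters' processing notes (versions not given in the sources used here), so background correction and quantile scaling came before deposit. Of 35557 probes, 21789 carried 1 gene symbol in the platform annotation, 1621 several and 12147 none. Each gene was represented by the probe with the highest mean over the 9 arrays, giving 19938 genes. All 9 arrays entered 1 limma fit (limma 3.58.1, R 4.3.3) with group as the factor, no block and no filter, and p-values were adjusted by Benjamini-Hochberg over all genes; a call is an adjusted p under 0.05. The fit was tested on simulated data. Arrays carry no read depth, and their number limits the precision.

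By the rule for named genes, the text names per comparison the called members with the largest changes, up to 12 in each direction, or with none called the 4 with the smallest p, the 6 brightest members, the 6 with the largest SD within groups, RNAs of known special role, their hosts, and up to 4 called genes per list. Snord49a, Snora75, Scarna8, Snora30, Snora16a, Snora44, Snora74a, Snord73a and list genes that were not called were named after their values were seen. The members and the lists (core proteins, assembly factors, RNA ends and decay, RNA polymerase I, other short RNAs, Rnu genes and cell type markers) were chosen with earlier results of these data known. The host was the shortest protein-coding or noncoding gene spanning a member in the RefSeq table (GRCm38.p6); that table gives no strand, so strand was not required. One host gene, its snoRNA pair and a member named by that rule are not reported here. Tables and exact tests used Python 3.11.15, pandas 2.3.3, numpy 2.4.6 and scipy 1.17.1. Alternatives were a replicate block, filters at mean log2 values of 5 and 6, quantile and median scaling, a trended robust prior, fits of the 2 groups compared, array weights, other uses of several probes, an adjusted p under 0.1, and leaving out arrays.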

Additional observations from a re-analysis of the deposited data

How the results depend on the processing

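With array weights 1 member was called between forskolin and control (2.19% of all genes), 16 between forskolin with AICAR and forskolin (28.7%) and 19 between forskolin with AICAR and control (33.2%). For forskolin with AICAR against forskolin, the number called was 2 with the replicate block (2.92% of all genes), 7 among genes with a mean log2 of at least 6 (8.06%), 2 after median centring (5.09%), 9 with a trended robust prior (6.38%), 0 in a limma fit of the 2 groups (2.49%), 11 at an adjusted p under 0.1 (9.13%) and 0 in limma without replicate 3 of every group (1.21%), with 1 to 13 when 1 array was left out. Against control it was 6 with the replicate block (4.38%), 4 in the fit of the 2 groups (3.8%), 16 at an adjusted p under 0.1 (18.8%) and 1 without replicate 3 of every group (1.89%), with 3 to 21 when 1 array was left out. Without replicate 3 of every group the H/ACA box median of forskolin with AICAR minus forskolin was 0.011, and against control the medians were -0.14 for C/D box and -0.041 for H/ACA box members. Differences from forskolin that were not called changed sign as follows. Snora52 was 0.093 with array weights, 0.023 without replicate 3 of every group, and between -0.11 and 0.032 when 1 array was left out, turning positive without AICAR replicate 3 (0.0036) or forskolin replicate 1. Snora73a was 0.075 and Snora73b 0.024 with array weights, and 0.0099 and 0.0045 without replicate 3 of every group. Snord37 was between -0.037, without AICAR replicate 1, and 0.53 when 1 array was left out. Snord52 was 0.0049 after median centring, and between -0.057 and 0.053 when 1 array was left out, turning positive without AICAR replicate 2 or forskolin replicate 3 (0.0030). The cause was not tested in any of these. Deviations of same-numbered arrays from their group means had no uniform sign. Between forskolin and control arrays the correlations were 0.24, 0.013 and 0.33 for replicates 1, 2 and 3. Those with AICAR arrays lay between -0.41 and 0.083. Arrays of different number were not compared, so these values cannot decide on pairing. The replicate numbers were not taken as pairs in the main fit.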

Other observations

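Short RNA genes outside the naming rule were also measured. Rnu12, the U12 RNA of the minor spliceosome, rose with AICAR, with 7.96, 7.86 and 8.10 with forskolin and AICAR, against 7.55, 7.66 and 7.65 with forskolin (difference 0.35 ± 0.060, adjusted p 0.0093 in limma). Rnu3a, the U3 RNA, a C/D box RNA by structure, had 7.68, 7.94 and 7.72 with forskolin and AICAR, against 7.34, 7.57 and 7.64 with forskolin, with no overlap (difference 0.26 ± 0.10, adjusted p 0.16). Its control arrays had 7.60, 7.68 and 7.88, and the difference from control was 0.062 (adjusted p 0.70 in limma). Rnu5g, Rnu6 and Rnu7 differed from forskolin by -0.073, 0.097 and 0.072. Of the 5 Rnu genes 1 was called higher against forskolin, where 0.978% of all genes were. The 7 other short RNAs measured of 8 listed gave 0 calls against forskolin in limma, with 1 at an unadjusted p under 0.05. That was Rny1, the Y1 RNA, with 6.32, 6.47 and 5.35 with forskolin and AICAR, against 6.80, 6.58 and 6.73 with forskolin (difference -0.66 ± 0.25, adjusted p 0.16), and AICAR replicate 3 was its lowest array. Over the 7 short RNAs the median difference with AICAR was -0.090 from forskolin and -0.18 from control. The snoRNA and scaRNA members had medians of -0.15 and -0.18. The 296 microRNA genes had a median difference from forskolin of 0.023, with 4 higher and 28 lower calls, where 0.978% of all genes were called higher and 4.12% lower.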
